A study of Rattus norvegicus with 4 samples.

Results

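The AP-1 and immediate early factors described here are 10 genes, Fos, Fosb, Fosl1, Fosl2, Jun, Junb, Jund, Egr1, Ier2 and Myc, taken by gene symbol from the authors' probe table. They are read by 12 of its 21473 probes, with 2 probes each for Egr1 and Fosl2. Total RNA came from bone marrow cells of Wistar rats aged 6 weeks, cultured for 15 days at high density (2 arrays) or at regular density (2 arrays), and was measured on Agilent arrays with a single Cy3 channel. No transgene or drug is named for either group, while seeding numbers and media are not stated. The series' text speaks of 2 independent experiments with different high density cells in each. Where the arrays of a group came from related cultures, the p-values speak of the spread among these samples alone, which may be technical.

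AP-1 is a transcription factor made of pairs of proteins: a member of the Jun family (Jun, Junb, Jund) binds a partner of the Fos family (Fos, Fosb, Fosl1, Fosl2) or another Jun protein. Most of these genes, with the zinc finger factor Egr1 and the nuclear protein gene Ier2, are immediate early genes, which are transcribed within minutes of a stimulus such as serum, without new protein synthesis, and whose RNA is short-lived. Serum response factor (SRF) binds CArG boxes and the factor CREB binds cyclic AMP response elements (CREs) in front of many of them. Myc, a factor that drives growth and division, responds to mitogens as well, and in bone marrow stroma this set of genes is known for its response to growth factors and to mechanical load.

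The stretch of 250 bases before the start site is shown for Egr1, the member that changed, and for Ier2 and Jund, which hold a full CRE and lay higher at high density without passing the test. CArG boxes and full CREs are in capitals. The sequences are those of RefSeq, build GRCr8, in which 7 of the 10 members were matched. The windows lie at chr18:26736828-26737077 on the plus strand (Egr1), chr19:40399123-40399372 on the plus strand (Ier2) and chr16:18769772-18770021 on the minus strand (Jund), each printed from 5′ to 3′ of its own strand.
Egr1: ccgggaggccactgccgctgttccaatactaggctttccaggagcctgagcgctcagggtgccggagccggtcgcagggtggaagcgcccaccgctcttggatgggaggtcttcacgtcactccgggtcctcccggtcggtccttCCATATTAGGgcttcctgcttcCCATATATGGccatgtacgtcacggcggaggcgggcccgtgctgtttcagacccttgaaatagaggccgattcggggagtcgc
Ier2: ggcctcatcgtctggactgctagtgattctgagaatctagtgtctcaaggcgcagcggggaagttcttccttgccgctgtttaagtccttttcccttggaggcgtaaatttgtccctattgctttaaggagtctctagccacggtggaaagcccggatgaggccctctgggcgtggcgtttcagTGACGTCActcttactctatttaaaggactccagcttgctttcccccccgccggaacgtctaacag
Jund: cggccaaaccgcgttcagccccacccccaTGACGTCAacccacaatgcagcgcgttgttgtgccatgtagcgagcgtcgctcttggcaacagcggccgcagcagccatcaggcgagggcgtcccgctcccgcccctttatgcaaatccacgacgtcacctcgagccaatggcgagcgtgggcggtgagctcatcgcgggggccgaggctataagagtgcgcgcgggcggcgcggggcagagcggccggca

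Both strands of all 33469 RefSeq windows of this length were searched. The Egr1 window held 2 CArG boxes, starting at positions -105 and -83 from the start site, and a CArG box was found in 1.5% of all windows. The CRE TGACGTCA stood in the windows of Ier2, starting at position -66, and of Jund, starting at position -221, against 1.59% of all windows. Of the 7 matched members, Fosb, Fosl1, Fosl2 and Junb held neither, and the AP-1 motif TGANTCA, found in 6.34% of all windows, was in none of the 7. A match is a description of letters in this window and no evidence of binding.

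The arrays were of like brightness. At high density the 75th percentile of all probes stood at 386 and 462 intensity units, at regular density at 355 and 435. The median negative control read 13.4 and 1.93 at high density and 10.5 and 1.99 at regular density, so it split the arrays by replicate number. For the tested members, changes within a number are given beside those over all arrays. Background, the 99th percentile of 153 negative control spots, was between 27.1 and 36.9 in intensity units. The submitters call the cells endothelial progenitor cells, but of 12 endothelial and progenitor markers Cd34, Tek, Nos3 and Emcn lay under background on all 4 arrays, Pecam1 on all but 1 regular density array and Kdr on all but 1 high density array. Flt1, Cdh5, Eng, Tie1 and Vwf were above background on all 4 arrays and Prom1 on both high density arrays only, and of the 5 tested Flt1 alone passed, 3.01-fold higher at high density (adjusted p = 9.68e-04 with limma). The summed intensity of 10 smooth muscle markers was 156301 to 162346 at high density and 19461 to 20498 at regular density, and that of 9 proliferation markers 6903 to 7007 at high density and 3574 to 3608 at regular density. For 11 leukocyte and macrophage markers it was 100937 to 106876 at high density and 99666 to 104931 at regular density, a sum carried by the bright Lyz2 and Cd68. Within that list 4 of 10 tested genes rose, C1qa by 6.80-fold, C1qc by 5.62-fold, C1qb by 3.26-fold and Adgre1 by 1.37-fold, and Cd14 fell (log2 change -0.38). Of 10 stroma and fibroblast markers, which summed to 258305 to 275514 at high density and 235994 to 268586 at regular density, 4 rose, Cxcl12 by 4.11-fold, and Dcn fell (log2 change -1.34). The part of these shifts in the results below was not tested, and in RNA from whole cultures fewer cells of a type and less RNA per cell cannot be told apart.

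The design sets the RNA of crowded cultures against that of cultures at ordinary density. Egr1 rose at high density, 1.57-fold by its brighter probe, and it was the 1 of 9 tested members whose change passed an adjusted p of 0.05 with limma, a linear model with moderated variances. Over all 13681 features tested, 30.9% passed in either direction, and 13.0% passed upward. Ier2, Jun, Fosb and Jund had higher values on both high density arrays than on either regular density array but did not pass, and Fos, Junb, Fosl1 and Myc overlapped between the groups. The 9 tested members had a median log2 change of 0.29, beside -0.08 over all features, and none reached a fold of 2, which 6.34% of all features did while passing the test. All values on the log2 scale below are intensities after each array was aligned on its 75th percentile, and Fosl2 was too dim to test. Under the scalings tried, the median of the members lay between 0.17, with median scaling, where the median of all features was -0.20, and 0.40, without scaling, where that of all features was 0.03.

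**Figure D1:**
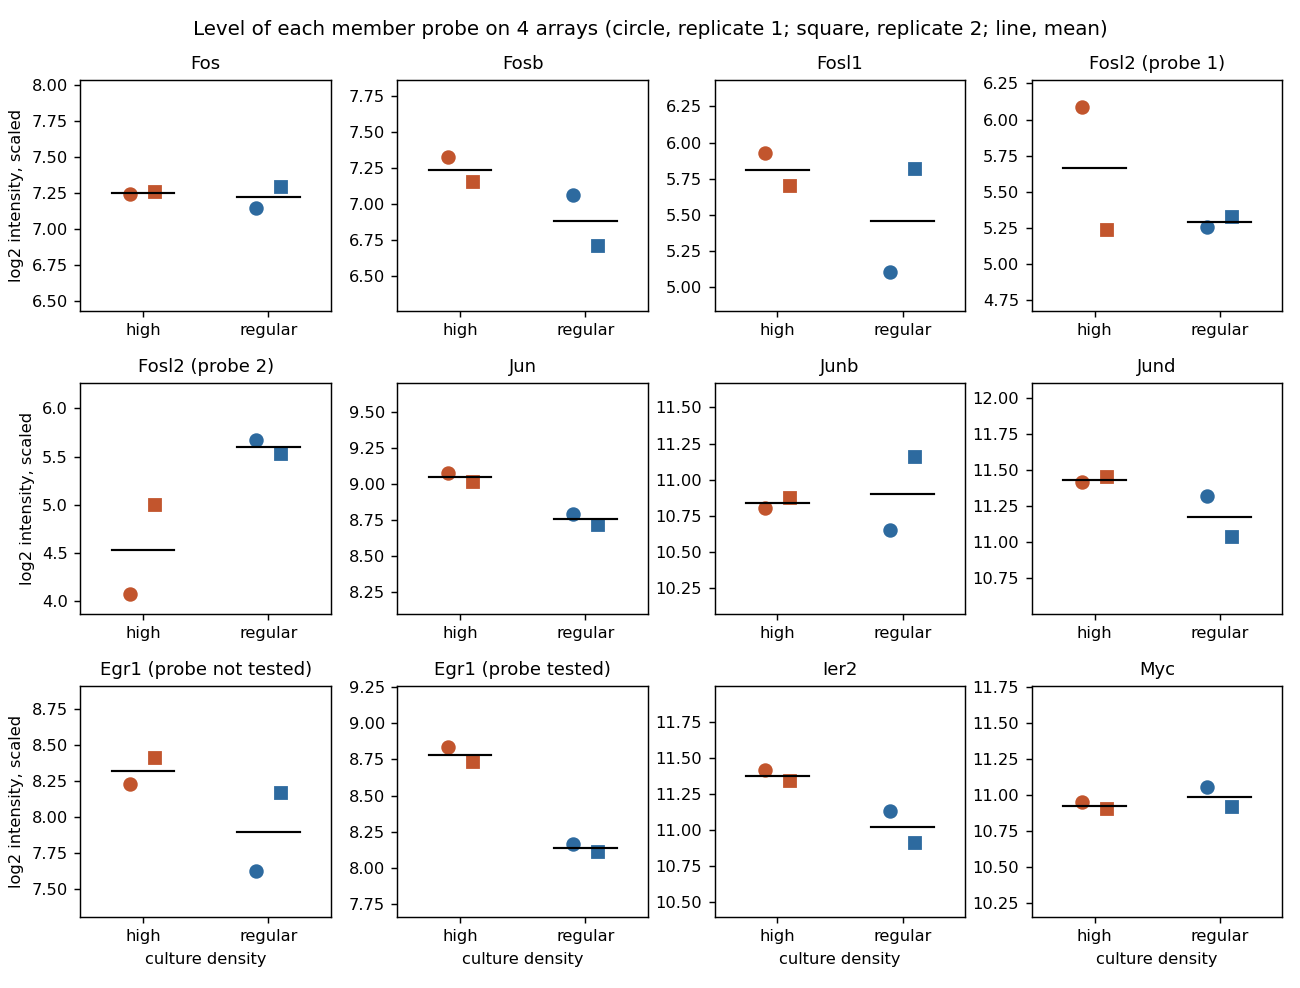
Scaled log2 intensity (vertical axis) of each of the 12 member probes on the high density and regular density arrays, a circle for replicate 1, a square for replicate 2 and a line for the group mean; every panel spans at least 1.6 log2 units, and panels have their own centre. The tested Egr1 probe shows the widest gap between groups relative to the spread of its replicates, and the 2 Fosl2 probes go in opposite directions.

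Egr1 (Entrez gene 24330) encodes a zinc finger factor that activates growth factor and matrix genes after serum or stretch. Its brighter probe lies on chromosome 18 from 27346058 to 27346117 by the coordinates the authors deposited, for which no assembly is named. That probe read 433 and 483 intensity units at high density, against 249.5 and 295 at regular density, before scaling. On the scaled log2 scale it had 8.83 and 8.73 at high density and 8.16 and 8.11 at regular density. The lowest high density array lay above the highest regular density array, and the gap was several times the spread within either group. The log2 change was 0.65 (SE 0.10, 95% interval 0.40 to 0.89, n = 2 arrays per group, adjusted p = 0.00639 with limma), or 0.67 within replicate number 1 and 0.62 within number 2. It stayed past the threshold under each of 17 other settings, with changes from 0.52 to 0.75.

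A further Egr1 probe, printed on 10 spots, lies on chromosome 18 from 27347173 to 27347232. It averaged 8.23 and 8.41 at high density and 7.63 and 8.17 at regular density on the scaled log2 scale. Both high density arrays were again above both regular density arrays, but regular density replicate 2 came within 0.06 of high density replicate 1. The change of this probe was 0.60 within replicate number 1 and 0.24 within number 2. The 10 spots of an array had an SD of 0.04 to 0.10, less than the gap between the regular density arrays. In a fit with each of 30367 probes as its own feature, added after seeing the data, the change of this probe was 0.42 (SE 0.17, adjusted p = 0.107 with limma), and the brighter probe kept its call (adjusted p = 0.00192). With the mean of both probes as the value of the gene, the change was 0.53 (adjusted p = 0.0188).

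**Figure D2:**
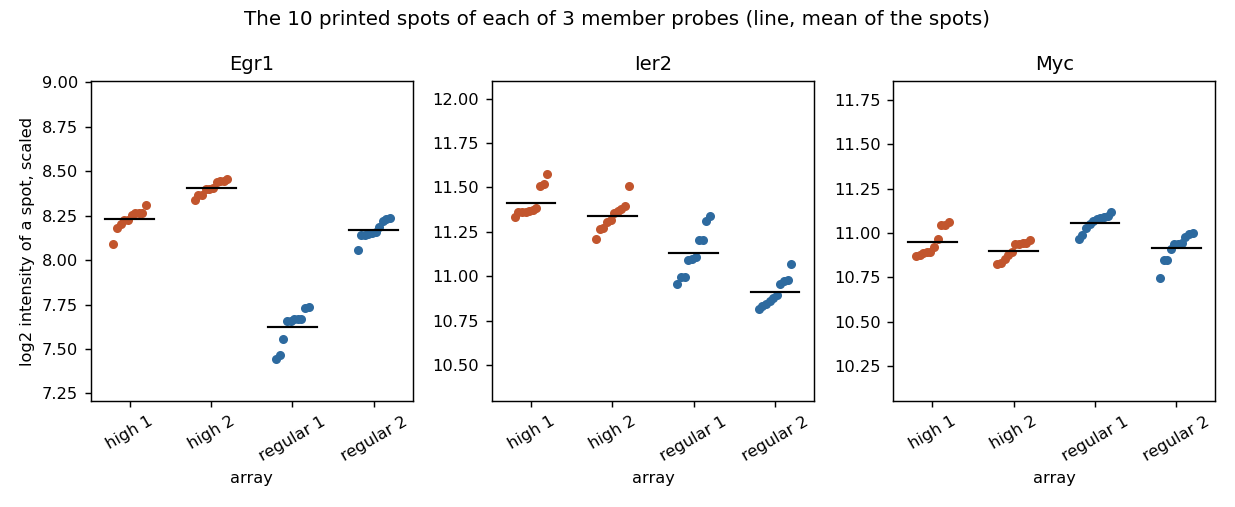
Scaled log2 intensity (vertical axis) of each of the 10 printed spots of the repeated Egr1, Ier2 and Myc probes on each array, with high density arrays on the left, regular density arrays on the right and a line at the mean of the spots. Spots of an array had SDs between 0.04 and 0.13, and for Egr1 regular density replicate 1 stands apart from the other 3 arrays.

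Ier2 (Entrez gene 494344), an immediate early gene for a nuclear protein, came closest to the threshold among the members that missed it. Its probe, on chromosome 19 from 25160648 to 25160707 in the authors' table, is printed on 10 spots. It had scaled log2 values of 11.42 and 11.34 at high density and 11.13 and 10.91 at regular density. The groups did not overlap, and the SD over the 10 spots was 0.08 to 0.13 on each array. The log2 change was 0.36, a fold of 1.28 (SE 0.11, 95% interval of the log2 change 0.09 to 0.62, adjusted p = 0.0534 with limma), with 0.29 within replicate number 1 and 0.43 within number 2. This call depended on the setting, and Ier2 passed under 7 of 17 alternatives. Quantile scaling (0.44, adjusted p = 0.0227) and cyclic loess scaling (0.50, adjusted p = 0.0150) were among them. So were the authors' normalized values (0.41, adjusted p = 0.0313) and either no filter or a stricter filter on dim probes. Ier2 did not pass with median scaling (0.23, adjusted p = 0.265) or with no scaling (0.46, adjusted p = 0.147). With 1 array left out, its log2 change ran from 0.25 to 0.46.

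Of the Jun family, Jun and Jund lay higher at high density without passing the test and Junb did not separate the groups. Jun (Entrez gene 24516, chromosome 5 from 115359410 to 115359469), which encodes c-Jun, the strongest activator of the family, had scaled log2 values of 9.08 and 9.02 at high density and 8.79 and 8.72 at regular density. The replicates of Jun were tight, with SDs of 0.04 at high density and 0.05 at regular density. Its log2 change was 0.29, a fold of 1.22 (SE 0.10, 95% interval of the log2 change 0.06 to 0.53, adjusted p = 0.0655 with limma), and 0.28 and 0.30 within replicate numbers 1 and 2. Under cyclic loess scaling it passed by a small margin (0.33, adjusted p = 0.0499 with limma), and with median scaling it did not (0.17, adjusted p = 0.351). Over the 17 alternatives the log2 change ran from 0.17 to 0.40.

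Jund (Entrez gene 24518, chromosome 16 from 19239707 to 19239766) encodes JunD, the member that resting cells express steadily. It had scaled log2 values of 11.41 and 11.45 at high density and 11.32 and 11.03 at regular density. The high density arrays lay close together, and the regular density arrays differed by more than the groups did on average. The difference for Jund was 0.26 on the log2 scale (SE 0.12, 95% interval -0.03 to 0.55, adjusted p = 0.152 with limma), or 0.10 and 0.42 within replicate numbers 1 and 2. Without regular density replicate 1 it was 0.40 (adjusted p = 0.0342), and without regular density replicate 2 it was 0.11 (adjusted p = 0.457).

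Junb (Entrez gene 24517, chromosome 19 from 24833225 to 24833284) encodes JunB, which can restrain c-Jun. It had scaled log2 values of 10.81 and 10.87 at high density, inside the range of 10.65 and 11.15 at regular density. The spread within regular density, an SD of 0.35, was larger than the difference between the groups. Its log2 change was -0.07 (SE 0.17, 95% interval -0.47 to 0.34, adjusted p = 0.788 with limma), or 0.15 and -0.28 within replicate numbers 1 and 2. The sign turned with quantile, cyclic loess and no scaling, with the authors' values and without regular density replicate 2, where the change was 0.18.

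Of the Fos family, none passed the test. Fos (Entrez gene 314322, chromosome 6 from 109561941 to 109562000), which encodes c-Fos, the classical partner of c-Jun, had scaled log2 values of 7.25 and 7.25 at high density and 7.15 and 7.29 at regular density. The high density values fell between the regular density values. For Fos the log2 change was 0.03 (SE 0.13, adjusted p = 0.882 with limma), or 0.10 and -0.04 within replicate numbers 1 and 2. Its 95% interval of -0.29 to 0.34 covers linear ratios of 0.820 to 1.27. The sign turned under quantile scaling, median scaling, the authors' values and without regular density replicate 1.

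Fosb (Entrez gene 308411, chromosome 1 from 78668672 to 78668731) encodes FosB, whose short splice form lacks part of the activation region. Which of the forms the probe reads was not checked. It had scaled log2 values of 7.32 and 7.15 at high density and 7.06 and 6.70 at regular density. The groups did not overlap, but the nearest arrays differed by 0.09 only. The mean difference was 0.35 on the log2 scale (SE 0.17, 95% interval -0.06 to 0.77, adjusted p = 0.163 with limma), with 0.26 within replicate number 1 and 0.45 within number 2.

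Fosl1 (Entrez gene 25445, chromosome 1 from 208099035 to 208099094) encodes Fra-1, a Fos protein without a strong activation domain that accumulates in dividing and migrating cells. Its mean scaled log2 value of 5.64 lay just above the limit of 5.62 for testing. It had 5.93 and 5.70 at high density and 5.10 and 5.81 at regular density, so the groups overlapped and regular density replicate 1 was the low array. Fosl1 had a log2 change of 0.35 (SE 0.31, adjusted p = 0.411 with limma), -0.0023 without that array, and 0.82 and -0.12 within replicate numbers 1 and 2. Its 95% interval was -0.38 to 1.09, the widest among the tested members.

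Fosl2 (Entrez gene 25446) encodes Fra-2, a Fos protein active in bone and fibrotic tissue. Both of its probes name the same transcript and have no position in the authors' table. Their mean log2 values of 5.48 and 5.07 lay under the limit of 5.62 for testing. The brighter probe had 6.09 and 5.23 at high density and 5.26 and 5.32 at regular density, where high density replicate 1 alone was high. The dimmer had 4.07 and 5.003 at high density and 5.67 and 5.53 at regular density, with the high density values below both regular density values and 1 of the 2 high density arrays above background. In the fit of every probe their log2 changes were 0.37 (adjusted p = 0.562) and -1.06 (adjusted p = 0.0508 with limma). The probes of Fosl2 therefore disagreed in sign, and no direction is given for the gene.

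Myc (Entrez gene 24577, chromosome 7 from 98957687 to 98957746) had scaled log2 values of 10.95 and 10.90 at high density and 11.06 and 10.91 at regular density, each a mean of 10 spots with an SD of 0.05 to 0.08. The groups overlapped and the arrays lay close together. For Myc the log2 change was -0.06 (SE 0.10, adjusted p = 0.666 with limma), and its 95% interval of -0.30 to 0.18 covers linear ratios of 0.811 to 1.13. It was -0.11 and -0.01 within replicate numbers 1 and 2. The sign turned with quantile, cyclic loess and no scaling, with the authors' values and without regular density replicate 1. Proliferation markers rose over the same arrays: 7 of 8 tested passed upward, among them Ccnb1 with a log2 change of 1.97.

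**Figure D3:**
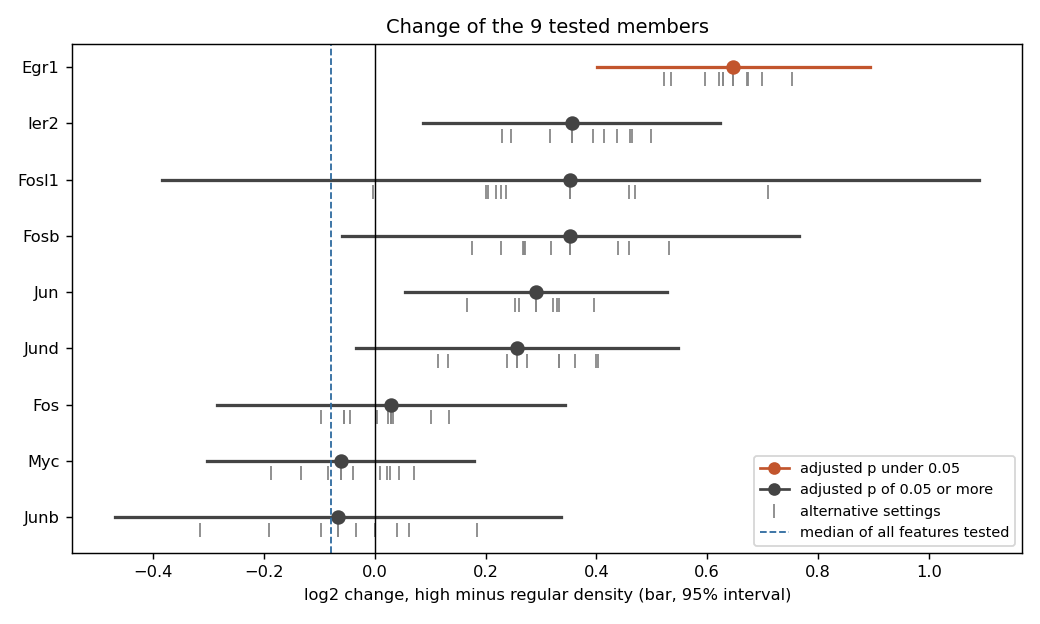
Log2 change (horizontal axis, high minus regular density) of the 9 tested members with 95% intervals, ticks for the values under alternative settings and a dashed line at the median of all features. The interval of Egr1, 0.40 to 0.89, lies farthest from 0, those of Ier2 and Jun exclude 0 before adjustment, and those of the other 6 members include it.

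Before adjustment, 3 of the 9 tested members had p under 0.05, where 43.6% of all features did. Groups did not overlap for 5 of 9, all upward, where the groups of 69.7% of all features were apart, 28.1% with high density above and 41.7% with high density below. Alignment on a percentile shifts all genes of an array alike, so the ratio of Egr1 to another member within an array is the same with 75th percentile, median or no scaling, though not with quantile or cyclic loess scaling, which shift genes by intensity. Egr1 had the largest change of the 9 tested members. Taking it as the reference therefore fixed a positive mean excess over each other member in advance. On the log2 scale the ratio of Egr1 to Myc was higher on both high density arrays than on either regular density array, by 0.71 on average (0.63 to 0.78 over the pairs of arrays). For Egr1 against Fos the excess was 0.62 (0.47 to 0.77), against Junb 0.71 (0.36 to 1.07), against Jund 0.39 (0.20 to 0.58), against Jun 0.36 (0.32 to 0.39), against Fosb 0.29 (0.11 to 0.48) and against Ier2 0.29 (0.20 to 0.39), again without overlap. Against Fosl1 the groups overlapped (-0.15 to 0.74). All these ratios use the brighter Egr1 probe. On the further Egr1 probe, high density replicate 1 lay above regular density replicate 2 by 0.06 only. Between the same 2 arrays Ier2 differed by 0.50, Jun by 0.36, Jund by 0.38 and Fosb by 0.62. The ratios of the further probe to these 4 members therefore overlap between the groups. With quantile scaling the mean excess over Ier2 was 0.19 and that over Myc 0.61, and with cyclic loess scaling 0.18 and 0.60. Exact permutation of 2 against 2 arrays cannot give a p below 0.333, so these ratios are a description.

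The genes most like 3 of the members in their pattern over the 4 arrays were found by the Euclidean distance between log2 values centred on each gene's mean. Nearest to Fos were Vps37c (0.01), Ddx54 (0.02) and Cog5 (0.02), nearest to Jun were Otub2 (0.01), Sufu (0.03) and Ttyh2 (0.03), and nearest to Myc were Itsn1 (0.01), Rnf10 (0.01) and Clta (0.01). With 4 arrays and 13681 features, close neighbours are many, and these names are a description.

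Around the members, genes of 7 related lists were read in the same fit, with 131 tested genes in all, of which 31 rose and 20 fell, beside 13.0% of all features that rose and 17.9% that fell. Among 9 tested proteins that can pair with Fos or Jun or belong to the same leucine zipper class, 2 rose and none fell, with a median log2 change of 0.23 beside -0.08 over all features. Atf3, a stress-induced partner of Jun, had scaled log2 values of 9.29 and 9.23 at high density and 8.66 and 8.62 at regular density. The groups were clearly apart, with a log2 change of 0.62 (SE 0.10, adjusted p = 0.00584 with limma), close to that of Egr1, and it passed under each of 17 alternatives. Maf, a zipper factor of macrophages and lens, rose by 0.53 (adjusted p = 0.0251), a call that ended under other scalings and on leaving out either high density array or the second regular density array (adjusted p up to 0.115). The lymphoid and myeloid factor Batf had 0.34 (adjusted p = 0.0906) and the repressor Jdp2 0.23 (adjusted p = 0.318).

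Of 32 other immediate early genes tested, 14 rose and 3 fell, with a median log2 change of 0.36. Nr4a1, an orphan nuclear receptor induced with Fos and Egr1 in many cells, had scaled log2 values of 10.21 and 10.21 at high density and 8.21 and 8.16 at regular density. The groups were 4.08-fold apart, a log2 change of 2.03 (SE 0.09) with an adjusted p of 1.16e-04 by limma. Hbegf, a ligand of the EGF receptor, rose 3.08-fold (9.68 and 9.61 at high density, 8.12 and 7.93 at regular density). The phosphatase Dusp1, which switches off MAP kinases, rose 1.95-fold, the inhibitor of differentiation Id2 1.91-fold and the zinc finger factor Klf6 1.83-fold. Each of these 5 passed under all 17 alternatives. The zinc finger factor Egr2, of the family of Egr1, had 7.45 and 7.67 at high density and 7.14 and 7.37 at regular density, narrowly separate groups with a log2 change of 0.30 that did not pass (adjusted p = 0.163).

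The 3 that fell, named after their values were seen, were the factor Klf4 (log2 change -0.85, adjusted p = 0.00432), the kinase Plk2 (-0.45, adjusted p = 0.0188) and the factor Cebpd (-0.41, adjusted p = 0.0251). Plk2 and Cebpd lost their call without scaling and without either high density array. Cebpd also lost it with cyclic loess scaling and without regular density replicate 1. A further 10 genes of this list were too dim to test. Of these, Phlda1, Nr4a3, Arc and Ptgs2, also named after their values were seen, cleared background at high density on both arrays and at regular density on neither. Phlda1 was at least 2.64-fold higher (adjusted p = 8.92e-05 with limma and no filter on dim probes), and the nuclear receptor Nr4a3 at least 1.61-fold (adjusted p = 6.97e-04). Such bounds set the mean of the bright group against the background of the dim group. The synaptic immediate early gene Arc and the prostaglandin synthase Ptgs2 did not pass (adjusted p = 0.0691 and 0.159), and no fold is given for them. The choice by background was made on these same values and fixes the direction of all 4. Their p-values are therefore no test of a difference, and the bounds are a description. Without high density replicate 1 this list had 8 rises and 1 fall, and under median scaling 9 rises and 3 falls.

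Upstream of these genes stand MAP kinases and the serum response. Of 24 tested genes 6 rose and 2 fell, with a median of 0.10, and the count turned to 2 rises and 3 falls under median scaling, to 2 and 1 without high density replicate 1, to 4 and 1 without regular density replicate 2 and to 3 and 3 with the mean over the probes of a gene. Srf, the serum response factor itself, had scaled log2 values of 11.21 and 11.25 at high density and 10.30 and 10.28 at regular density. The groups were far apart, and the change of 0.94 (SE 0.09, a fold of 1.92, adjusted p = 0.00109 with limma) passed under all alternatives. Its coactivator Mrtfa had 0.52 (adjusted p = 0.0206), the kinase Mapk9, which phosphorylates c-Jun, 0.47 (adjusted p = 0.0202) and the kinase Araf 0.45 (adjusted p = 0.0158). All of these 3 lost their call under median scaling and without high density replicate 1, and Mapk9 and Araf without scaling too. Mapk9 also lost it without high density replicate 2, and Mrtfa without regular density replicate 2. With the mean over the probes of a gene Mrtfa lost its call and Araf had -0.03. Rps6ka5, a kinase that acts on chromatin at immediate early genes, had -0.75 (adjusted p = 0.0112) and did not pass without scaling.

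Among 10 tested inhibitors of MAP kinase signalling, 2 rose and 3 fell, with a median of -0.09, and without scaling none fell. The phosphatase Dusp14 rose 2.02-fold (adjusted p = 0.00117) beside Dusp1. Dusp5, which acts on ERK in the nucleus, had a change of -0.68 (adjusted p = 0.00963), and the receptor signalling inhibitors Spry1 and Spry2 had -0.59 (adjusted p = 0.00918) and -0.51 (adjusted p = 0.0273 with limma). Spry2 lost its call without any 1 of the 4 arrays. Dusp6, the cytoplasmic ERK phosphatase, had 9.72 and 9.77 at high density and 9.64 and 9.54 at regular density, a change of 0.15 (adjusted p = 0.259).

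Genes known as AP-1 targets went both ways. Of 19 tested, 7 rose and 5 fell, with a median of -0.01 that ran from -0.14 to 0.29 over the alternatives. The falls numbered 3 under quantile scaling and 3 without either high density array. Timp1, an inhibitor of matrix proteases, had scaled log2 values of 13.79 and 13.75 at high density and 12.56 and 12.30 at regular density, a 2.53-fold rise (adjusted p = 7.07e-04 with limma), and Hbegf is described above. The quinone reductase Nqo1 fell, with 9.73 and 9.83 at high density and 11.54 and 11.34 at regular density (log2 change -1.66, adjusted p = 2.88e-04). The metallothionein Mt2A, which responds to metals too, had 11.72 and 11.63 at high density and 15.53 and 15.43 at regular density, a change of -3.80.

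Partners and antagonists of Myc numbered 8 tested genes, of which 1 rose and 3 fell, with a median of -0.14. Mycn, the paralogue of Myc in progenitor cells, had 5.70 and 5.32 at high density and 7.16 and 7.36 at regular density. It lay lower on both high density arrays, with a log2 change of -1.75 (SE 0.20, adjusted p = 0.00217 with limma). Mxi1 and Mnt, which compete with Myc for its partner, had changes of -0.90 (adjusted p = 0.00567) and -0.54 (adjusted p = 0.00857). That partner, Max, rose by 0.40 (adjusted p = 0.0445), a call that ended in 8 of 17 alternatives, among them when either high density array or the second regular density array was left out, and Mlx, of the same network, had -0.32 (adjusted p = 0.0685). Mnt lost its call without scaling and without high density replicate 1.

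Of 31 tested genes known as Myc targets in ribosome making and growth, 1 rose, 4 fell and 26 did not pass, with a median of -0.03, beside 13.0% of all features higher and 17.9% lower. Nme1, a nucleotide kinase, rose by 0.58 (adjusted p = 0.0234), and the transferrin receptor Tfrc had -0.59 (adjusted p = 0.00780), lactate dehydrogenase Ldha -0.51 (adjusted p = 0.0122), the kinase Cdk4 -0.41 (adjusted p = 0.0214) and the nucleolar protein Npm1 -0.40 (adjusted p = 0.0339). Tfrc kept its call without each array in turn but lost it without scaling. Under quantile scaling 4 rose and 2 fell, with median scaling none rose and 5 fell, and without high density replicate 1 none rose and 1 fell.

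**Figure D4:**
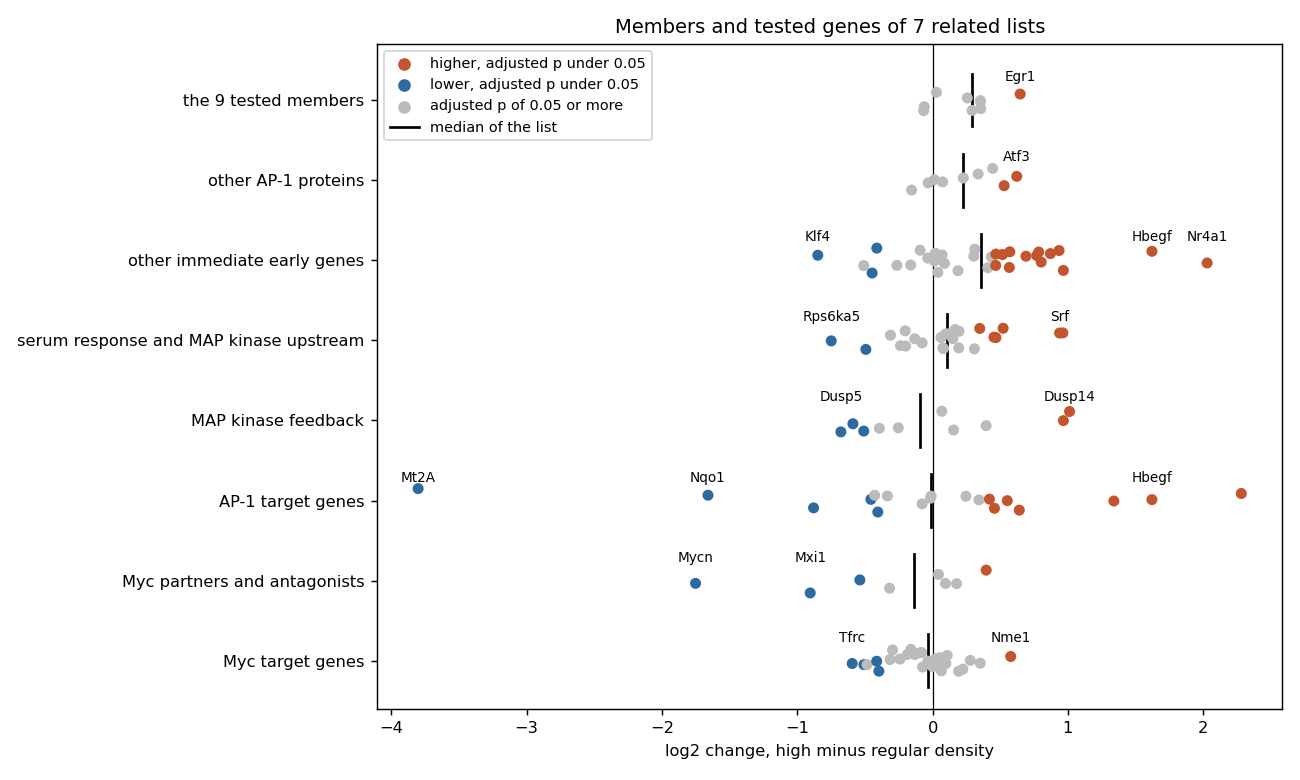
Log2 change (horizontal axis, high minus regular density) of the 9 tested members and of the tested genes of 7 related lists, each point a gene, coloured by whether it passed upward, passed downward or did not pass, with a bar at the median. Nr4a1 and Hbegf lie at 2.03 and 1.62 in the list of other immediate early genes, to the right of Egr1 at 0.65, and Mt2A lies at -3.80 among the AP-1 targets.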

How the data were processed

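RNA of 4 samples, 2 per group, was hybridised to Agilent arrays. The deposited spot table holds linear intensity after all scanner software steps, per the file headers, made with Agilent Feature Extraction 11.0.1.1 per the submitters' processing notes. The authors' probe table adds normalized log2 values, whose normalization method is not given in the sources used here.

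Of 44254 spots, 1377 control spots were left out. Log2 intensities of repeated spots were averaged to 30367 probes, and each array was aligned on its 75th percentile. Symbols were updated through Entrez IDs and RefSeq accessions; 8825 probes stayed unnamed. The brightest probe stood for its gene, and features with a mean log2 value above 5.62, the median of all probes, were tested with limma 3.58.1 in R 4.3.3 (moderated variances with an intensity trend, two-sided, Benjamini-Hochberg adjustment over all features). Intervals used 6.43 degrees of freedom. The number of arrays limits the precision. The method was tested on simulated data.

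Other steps used Python 3.11.15, with pandas 2.3.3 for the tables. All 10 members were named, and up to 5 genes per list with the smallest p, plus Atf3, Jdp2, Nr4a1, Egr2, Srf, Dusp1, Dusp6, Max and Mycn; some genes this rule names are not reported here. Members and lists were chosen with earlier results of these data known. Same-numbered arrays are not stated to share an experiment, so the groups were compared without pairing. Alternatives were 4 other scalings, the authors' values, a floor of 32, filters on dim probes, variance models and leaving out each array.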

Additional observations from a re-analysis of the deposited data

How the results depend on the processing

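The number of changed features was 4233 (1780 higher, 2453 lower), 1972 without scaling (1394 higher, 578 lower), 7020 with a replicate block, 868 with a fold of at least 2 as well, and between 2412, without high density replicate 1, and 3961 with an array left out. Median scaling gave 1203 higher and 3246 lower features, cyclic loess 1943 and 1519, and quantile scaling 1828 and 1873; the median change of all features was -0.20 under median scaling and 0.03 without scaling, against -0.08. Changed members numbered 1 (Egr1), but 2 with quantile scaling, with the authors' normalized values, with no filter and with the stricter filter on dim probes, 4 with cyclic loess, 5 with the replicate block (Egr1, Ier2, Jun, Fosb and Jund, adjusted p up to 0.0471), 0 with a fold of at least 2, and 1 to 3 with an array left out, the 3 without regular density replicate 1. Of the 131 genes of the related lists, 51 changed, 28 without scaling, 8 with a fold of at least 2, 70 with the replicate block and 26 (without high density replicate 1) to 48 with an array left out. The replicate block is no evidence of pairing: deviations of same-numbered arrays correlated at 0.37 over probes, with 2 pairs.

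Signs turned for Fos with quantile scaling (-0.055), median scaling (-0.097), the authors' values (-0.055) and over the arrays left out (-0.044 to 0.10), for Junb with quantile scaling (0.00038), no scaling (0.039), cyclic loess (0.062), the authors' values (0.00097) and over the arrays left out (-0.32 to 0.18), for Myc with quantile scaling (0.023), no scaling (0.044), cyclic loess (0.070), the authors' values (0.027) and over the arrays left out (-0.13 to 0.0097), and for Fosl1 over the arrays left out (-0.0023 to 0.71). The causes were not tested. Where an array is left out, its group has 1 array, assumed to vary like the other group.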
